A study of Drosophila melanogaster with 6 samples.

Results

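Whole larvae depleted of Trr were compared with wild-type larvae at the clear gut stage, the later of the 2 stages of wandering sampled, when the dyed food has left the gut. Gene levels were taken from the authors' table as RPKM (reads scaled to gene length and to the library's reads on genes), and a dash was read as 0. A gene was kept where its mean over the Trr depletion library and the wild-type library was at least 1 RPKM, which held for 11326 of the 15741 entries. At this limit CG3746, at 1.36 RPKM in Trr depletion and 0.638 in wild type, lay just inside. The gene l(2)35Cc, at 0.891 RPKM in Trr depletion and 1.11 in wild type, lay just outside. Of the genes kept, 735 have no gene symbol.

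The Trr depletion larvae expressed a short hairpin RNA against trr from the GawB69B Gal4 driver, a driver used for expression in epidermis and imaginal discs. The wild-type larvae are labelled by genotype alone, and nothing in the labels says which stock they were or whether it held the driver or a control hairpin. Each library came from a pool of over 20 whole animals of the last larval instar, kept at 25 °C, so that a level averages over all tissues. The table also holds a blue gut library, from earlier in wandering, of each genotype, and a clear gut and a blue gut library of larvae that expressed a hairpin against Cmi (gene Lpt) from the same driver. Each of the 6 groups is 1 library.

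Trr is a methyltransferase related to mammalian MLL3 and MLL4. In a COMPASS-like complex with Cmi it places methyl groups on histone H3 at enhancers, and the complex is known as a coactivator of the receptor for the steroid hormone ecdysone. Towards the end of wandering an ecdysone pulse builds up. The larva has then stopped feeding, empties its gut, secretes glue from the salivary glands, breaks down larval tissues and prepares the pupal case.

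The clear gut libraries held 23.9 M reads on genes in Trr depletion and 24.2 M in wild type, as recovered from RPKM and gene length, and the other 4 libraries held 23.1 to 25.0 M. With 1 library for each group a difference at clear gut has no replicate check and no test was made, and the spread between pools of larvae is unknown. A gene is counted as higher or lower where RPKM + 1 differed at least 2-fold, a log2 difference of 1 or beyond, which is a rule of size and understates changes of low genes. A ratio of RPKM is followed in parentheses by its exact 95% counting interval, which covers counting error only. The median log2 difference over all genes was 0.11, and it became 0.00 after median-ratio scaling and -0.01 after quantile normalization. Small differences of a list are read against that value. In whole larvae fewer cells of a type and less RNA per cell cannot be told apart.

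The targeted gene was examined first. The gene trr (dm6 chromosome X, 1881313 to 1889950) measured 4.76 RPKM in Trr depletion and 6.19 in wild type at clear gut, a ratio of 0.769 (0.705 to 0.838). Its level in the Trr depletion library was the lower, by less than 2-fold. At blue gut it measured 3.60 RPKM in the library labelled Trr depletion and 2.92 in wild type, a ratio of 1.23 (1.10 to 1.38). It was thus not lower there, although the label is of depletion. Its log2 difference of 0.23 lay near the median of all genes at blue gut, 0.18. Cmi depletion had 5.92 RPKM of trr at clear gut and 4.49 at blue gut. Lpt, which encodes Cmi, measured 6.95 RPKM in Trr depletion and 6.66 in wild type at clear gut, a ratio of 1.04 (0.941 to 1.16) that includes 1. All 16 COMPASS subunits measured lay within 2-fold of wild type, as did most genes, since only 3.68% of all genes were past 2-fold. Their log2 differences ran from -0.37 for trx, a methyltransferase of another COMPASS complex, to 0.29 for Cfp1, a subunit of the Set1 complex. Their median was 0.04, and it turned to -0.07 after median-ratio scaling and to -0.04 after quantile normalization. Utx, the histone demethylase of the Trr complex, had 30.5 RPKM in Trr depletion and 36.3 in wild type.

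Most genes lay close to the wild-type level. At least 2-fold differences were found for 417 of 11326 genes (3.68%), of which 264 were higher in Trr depletion (2.33%) and 153 were lower (1.35%). The split depends on scaling, since median-ratio scaling gave 221 higher genes and 197 lower ones, and quantile normalization gave 205 higher genes and 209 lower ones. The counting interval lay wholly beyond 2-fold for 211 of the 264 higher genes and for 121 of the 153 lower ones. Differences of 4-fold or more were seen for 65 higher and 26 lower genes, and of 16-fold or more for 8 higher and 6 lower genes. The higher genes were mostly of low abundance in wild type, with a median of 9.38 RPKM in Trr depletion and 1.99 in wild type. The lower genes had a median of 5.25 RPKM in Trr depletion and 18.9 in wild type. For 70 of the 417 genes, and for 2013 of all 11326, a value came out at a fraction of a read. This is taken here to mean that reads were shared with another entry, a step that no label records. Such genes are named below as sharing reads, and their values are uncertain. Long genes, Mhc among them, and the blue gut and Cmi depletion values were not judged for this. A gene not named so may therefore share reads too.

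**Figure D1:**
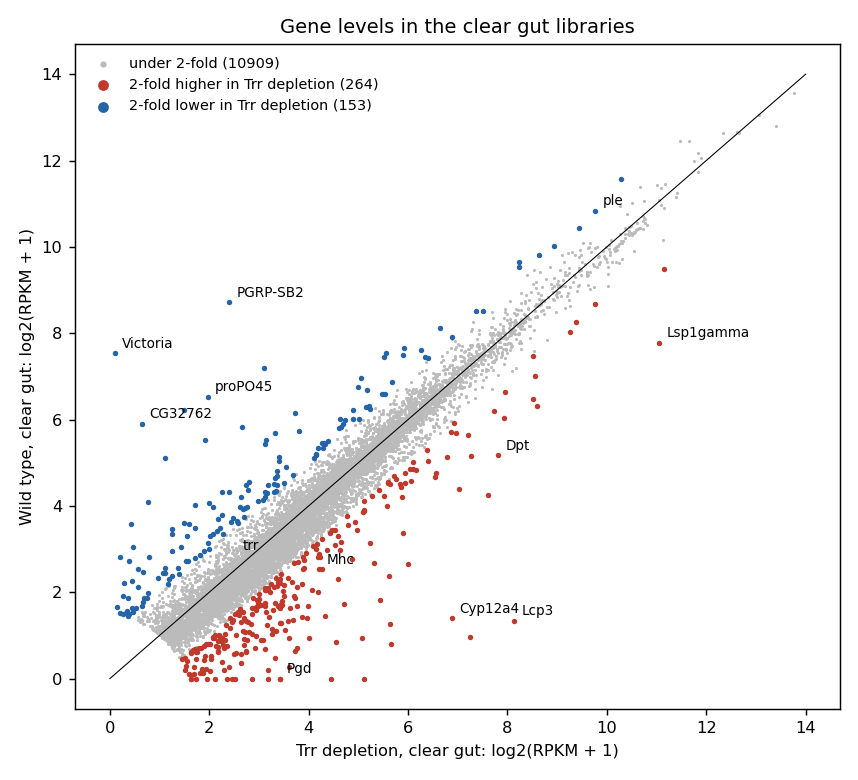
Each point is a gene kept, with log2(RPKM + 1) in the Trr depletion clear gut library on the horizontal axis and in the wild-type clear gut library on the vertical axis; the line marks equal levels. The 264 genes at least 2-fold higher in Trr depletion (red) and the 153 lower (blue) lie off a dense band of genes within 2-fold, and several of the red genes sit at 0 in wild type.

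Among the higher genes with a symbol, Lcp3 had the largest log2 difference of RPKM + 1. It encodes a larval cuticle protein (gene 35819, dm6 chromosome 2R, 8435310 to 8436095). Lcp3 measured 279 RPKM in Trr depletion and 1.53 in wild type at clear gut, against 2669 in the library labelled Trr depletion and 20.3 in wild type at blue gut. It was thus high in both Trr libraries relative to the wild-type library of the same stage, with ratios of 182 (125 to 277) and 132 (118 to 147). In Cmi depletion Lcp3 measured 0.712 RPKM at clear gut and 546 at blue gut. The next was Cyp12a4, a mitochondrial cytochrome P450, with 117 RPKM in Trr depletion and 1.65 in wild type, a ratio of 71.4 (56.2 to 92.1). Cyp12a4 was also high in the other 3 libraries labelled as depletions, at 155 RPKM in the blue gut library labelled Trr depletion, 42.7 in Cmi depletion at clear gut and 64.9 in Cmi depletion at blue gut, and low in wild type at blue gut, at 3.06.

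Pgd and Rack1 had the same pattern over the 6 libraries as Cyp12a4. Pgd, the 6-phosphogluconate dehydrogenase of the pentose phosphate pathway, had 9.69 RPKM in Trr depletion and 0 in wild type at clear gut, where no read fell on it. Taking 3 reads as the floor of a library, it stood 149-fold above that floor in Trr depletion, and the counting interval of its ratio began at 121. At blue gut Pgd had 10.5 RPKM in the library labelled Trr depletion and 0.0230 in wild type, from 1 read there, and in Cmi depletion it had 7.83 at clear gut and 9.10 at blue gut. Both wild-type libraries were thus at or near 0, and the other 4 libraries lay between 7.83 and 10.5 RPKM. Rack1, a scaffold protein of the small ribosomal subunit that shares reads with another entry, had 62.9 RPKM in Trr depletion and 5.32 in wild type at clear gut. The 4 libraries labelled as depletions lay between 62.9 and 75.4 RPKM of Rack1, above the wild-type libraries, at 5.32 RPKM at clear gut and 4.49 at blue gut.

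Several of the other highest genes were at or near 0 in wild type. CG14499 had 20.9 RPKM in Trr depletion and no read in wild type at clear gut. It stood 95.4-fold above the floor of 3 reads, with an interval that began at 77.1. CG6865, which shares reads, had 49.1 and 1.41 RPKM in Trr depletion and wild type. The lectin gene lectin-37Da had 8.11 RPKM in Trr depletion and no read in wild type, 43.5-fold above the floor. Its interval began at 34.9. CG32071, CG11300, CG5550 and CG42825 had ratios between 28.3 and 67.5, with 49.4 against 0.731 RPKM for CG32071, 32.6 against 0.903 for CG11300, 22.4 against 0.793 for CG5550 and 11.1 against 0.213 for CG42825. At blue gut CG32071 was 2-fold higher as well, with 273 RPKM in the library labelled Trr depletion and 47.4 in wild type. So were CG14499, with 1.59 RPKM in the library labelled Trr depletion and 0.153 in wild type, and CG6865, with 6.40 and 0.930. CG9877 had 193 RPKM in Trr depletion and 18.0 in wild type at clear gut, a ratio of 10.7 (9.15 to 12.6), and a ratio of 5.55 (4.72 to 6.57) at blue gut.

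Victoria, a Turandot gene of the stress response (TotE in RefSeq), had the largest difference in the other direction. It measured 0.0690 RPKM in Trr depletion and 185 in wild type at clear gut, and 0.0700 RPKM in the library labelled Trr depletion and 32.1 in wild type at blue gut. Only 1 read fell on it in each Trr library, and Cmi depletion had 0.655 RPKM at clear gut and 0 at blue gut, so that both wild-type libraries stood above the other 4 libraries. The ratio at clear gut was 0.000372 (9.4e-06 to 0.00207). PGRP-SB2, a peptidoglycan recognition protein, had 4.27 RPKM in Trr depletion and 421 in wild type at clear gut, a ratio of 0.0102 (0.00794 to 0.0128). Its level in Cmi depletion at clear gut was 250.4 RPKM, and the 3 blue gut libraries had 0 to 0.541 RPKM. The Trr depletion library was thus the low one among the 3 clear gut libraries. CG32762 showed the same arrangement, with 0.570 RPKM in Trr depletion, 59.0 in wild type and 65.7 in larvae depleted of Cmi at clear gut. CG42717 likewise had 7.61 RPKM in Trr depletion, 146 in wild type and 120.3 in larvae depleted of Cmi at clear gut.

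Other genes named were also among the lowest in Trr depletion. The sugar transporter relative CG1208, which shares reads, had 1.15 RPKM in Trr depletion, 33.3 in wild type and 1.33 in larvae depleted of Cmi at clear gut. CG17105 had 5.32 RPKM in Trr depletion and 55.4 in wild type at clear gut, and 125 and 894 in the library labelled Trr depletion and in wild type at blue gut. For CG43315 the values were 0.146 and 5.99 RPKM in Trr depletion and wild type at clear gut, and only 2 reads stood behind the Trr value, a ratio of 0.0244 (0.00290 to 0.0909). The integrin alpha subunit gene alphaPS4 had 0.388 RPKM in Trr depletion and 7.31 in wild type, a ratio of 0.0531 (0.0357 to 0.0761). The cuticle gene Cpr67Fa1 had 7.86 and 44.99 RPKM in Trr depletion and wild type, and CG33308 had 8.97 and 50.3. In Cmi depletion at clear gut CG17105 measured 1.44 RPKM, CG43315 0.07, alphaPS4 0.812 and Cpr67Fa1 9.27, all below wild type. CG33308 measured 63.9 RPKM there, above both Trr depletion and wild type.

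**Figure D2:**
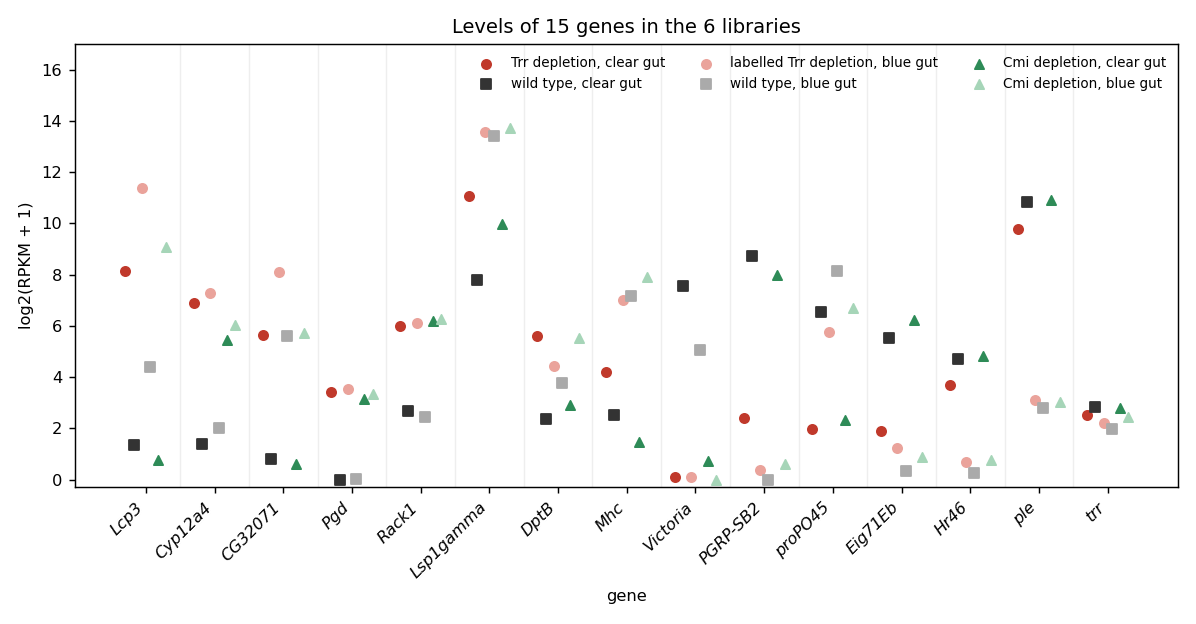
Levels of 15 genes as log2(RPKM + 1) in the 6 single libraries, with Trr depletion in red circles, wild type in grey squares and Cmi depletion in green triangles, dark at clear gut and pale at blue gut. Lcp3, Cyp12a4, Pgd and Rack1 are higher in the libraries labelled Trr depletion than in wild type at both stages, Victoria and proPO45 are lower at both stages, and PGRP-SB2, Eig71Eb, Hr46 and ple are low in all 3 blue gut libraries and lower in Trr depletion than in wild type at clear gut.

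The blue gut libraries labelled Trr depletion and wild type form a second pair that shares no library with the clear gut pair. Over the same 11326 genes, 375 differed at least 2-fold there (3.31%), 169 of them higher (1.49%) and 206 lower (1.82%). By its own filter that pair held 11245 genes, of which 454 differed at least 2-fold (4.04%), 191 higher (1.70%) and 263 lower (2.34%). Of the 264 genes higher in Trr depletion at clear gut, 68 were also at least 2-fold higher at blue gut, which is 25.8% of the clear gut list and 40.2% of the blue gut list. A further 24 (9.09%) were at least 2-fold lower at blue gut. Of the 153 lower genes, 52 were also 2-fold lower at blue gut, 34.0% of the clear gut list and 25.2% of the blue gut list, and 7 (4.58%) were 2-fold higher there. A difference of the same sign at blue gut was seen for 71.2% of the higher genes, where 71.5% of all genes had a positive difference, and for 69.3% of the lower genes, where 28.4% of all genes had a negative one. Across the 11326 genes the log2 differences at the 2 stages had a Pearson correlation of 0.31 and a Spearman correlation of 0.16, and across the 417 called genes 0.51 and 0.42. These describe genes, which are not independent replicates. The 417 were chosen by the size of their clear gut difference, and such a choice can by itself raise a correlation. The 2 pairs carry the same labels, but trr was not lower than wild type in the blue gut pair.

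Genes that differed the same way at both stages include some named above and several others. CG32198, which shares reads, had 6.22 RPKM in Trr depletion and no read in wild type at clear gut, and 11.9 in the library labelled Trr depletion and 0.355 in wild type at blue gut. The chitinase gene Cht9 had 13.5 and 1.70 RPKM in Trr depletion and wild type at clear gut, and 58.4 and 12.5 at blue gut. Its ratios were 7.93 (5.88 to 10.9) and 4.69 (4.17 to 5.28). Among the lower genes CG34276 had 1.38 and 10.1 RPKM in Trr depletion and wild type at clear gut, and 0.472 and 8.52 at blue gut. CG7214 had 0.714 and 6.08 RPKM in Trr depletion and wild type at clear gut, and 0.448 and 7.75 in the library labelled Trr depletion and in wild type at blue gut. The eye pigment transporter gene w, a common marker of fly stocks, had 116 RPKM in Trr depletion and 241 in wild type at clear gut, a ratio of 0.484 (0.470 to 0.499), and at blue gut the ratio was 0.530 (0.510 to 0.551). In Cmi depletion at clear gut and blue gut, CG34276 had 0.857 and 0.746 RPKM, CG7214 0.53 and 1.45, and w 123 and 88.55. For CG34276, CG7214 and w both wild-type libraries thus stood above every library labelled as a depletion. CG32198 had 0 and 34.7 RPKM in Cmi depletion at those stages, and Cht9 0.972 and 21.2.

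**Figure D3:**
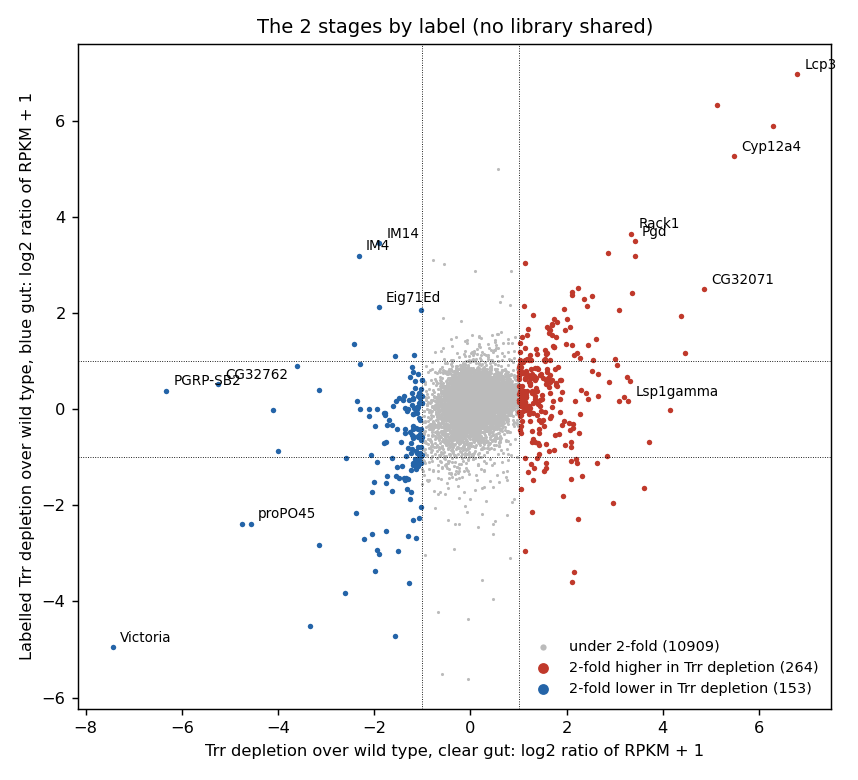
Each point is a gene kept, with the log2 ratio of RPKM + 1 of Trr depletion over wild type at clear gut on the horizontal axis and that of the blue gut libraries of the same labels on the vertical axis; dotted lines mark 2-fold. Of the red genes 68 lie above the upper line as well, of the blue genes 52 lie below the lower line, and 24 and 7 lie past 2-fold in the opposite direction.

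Genes of the ecdysone response were divided. The receptors and early factors, transcription factors switched on directly by the hormone, held 0 of 18 members higher and 2 lower, where 2.33% of all genes were higher and 1.35% lower, with a median log2 difference of -0.13. The lower members were Hr46 and Eip93F. Hr46 (Hr3 in RefSeq), a nuclear receptor that relays the pulse to the prepupal genes, measured 11.9 RPKM in Trr depletion, 25.4 in wild type and 27.3 in larvae depleted of Cmi at clear gut, with 0.193 to 0.687 in the blue gut libraries. Eip93F, a later acting factor, measured 2.96 RPKM in Trr depletion, 6.98 in wild type and 18.2 in larvae depleted of Cmi at clear gut. For both genes the Trr depletion library was the lowest at that stage, with ratios to wild type of 0.468 (0.444 to 0.493) and 0.425 (0.392 to 0.460). Hr4 and Hr39, nuclear receptors of the same cascade, had 17.1 and 25.5 RPKM in Trr depletion, against 25.8 and 38.5 in wild type, short of 2-fold. The receptor gene EcR had 21.3 RPKM in Trr depletion and 17.4 in wild type, Eip75B 40.3 and 40.1, and the Broad gene br 94.6 and 103.

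The late Eig71E genes are a cluster of small secreted proteins induced in the salivary gland as ecdysone rises. Of 6 members measured, 4 were lower and 0 higher, beside 1.35% and 2.33% of all genes. Eig71Eb measured 2.76 RPKM in Trr depletion, 44.98 in wild type and 73.7 in larvae depleted of Cmi at clear gut, and 0.244 to 1.33 RPKM in the 3 blue gut libraries. Eig71Ef had 0.348 RPKM in Trr depletion and 11.0 in wild type. Eig71Ea had 7.72 and 42.0 in Trr depletion and wild type, and Eig71Ed 4.30 and 18.9. These 4 genes were thus low in Trr depletion and high in both other genotypes at clear gut, with ratios to wild type between 0.0316 and 0.227. Eig71Ee and Eig71Eg of the same cluster were not lower. Eig71Ee, much the most abundant, had 2240.2 RPKM in Trr depletion and 1142 in wild type, and Eig71Eg had 31.3 and 22.97. The summed level of the list was therefore higher in Trr depletion, at 2287 RPKM against 1282 in wild type, while its median log2 difference was -2.10.

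Of 9 Imp and Edg genes, which respond to ecdysone in discs and epidermis, 2 were lower and 0 higher, beside 1.35% and 2.33% of all genes. ImpE2 had 395 RPKM in Trr depletion and 903 in wild type at clear gut, and 36.9 and 83.5 in the library labelled Trr depletion and in wild type at blue gut. Its ratios of 0.438 (0.430 to 0.446) and 0.442 (0.416 to 0.470) were close to each other. ImpL1 had 1.39 RPKM in Trr depletion and 6.71 in wild type at clear gut. Ecdysteroid synthesis held 1 higher and 1 lower gene of 14. The lower was spok, a Halloween cytochrome P450 of the prothoracic gland, with 10.6 RPKM in Trr depletion and 29.1 in wild type at clear gut, a ratio of 0.364 (0.325 to 0.406), and a ratio of 0.340 (0.294 to 0.392) at blue gut. The higher was Cyp6t3, with 3.49 and 0.538 RPKM in Trr depletion and wild type. Of 7 genes of juvenile hormone synthesis and response, 0 were called.

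Salivary glue genes, whose products fix the puparium to its substrate, held 2 of 9 members higher and 0 lower. The shares of all genes were 2.33% and 1.35%. CG7587 (Sgs5bis in RefSeq) measured 2256 RPKM in Trr depletion and 712 in wild type, a ratio of 3.17 (3.10 to 3.24). The gland gene ng3 had 56.2 RPKM in Trr depletion and 21.9 in wild type at clear gut, and 282 and 657 in the library labelled Trr depletion and in wild type at blue gut, where it was the lower. The most abundant glue genes lay within 2-fold, Sgs3 at 3241 RPKM in Trr depletion and 5564 in wild type, and Sgs5 at 5196 and 6421. At blue gut 5 of the 9 glue genes were at least 2-fold lower in the library labelled Trr depletion than in wild type. Of all genes kept, 1.82% were lower there.

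The fat body genes held 1 of 17 members past 2-fold, beside 3.68% of all genes. Lsp1gamma, a larval serum storage protein, measured 2126 RPKM in Trr depletion and 218 in wild type at clear gut, and 12209.6 and 10838 in the library labelled Trr depletion and in wild type at blue gut. By label, each genotype had less of it at clear gut, and the level left at clear gut was 9.75 (9.57 to 9.92) times wild type. In Cmi depletion it was 997 RPKM at clear gut and 13356 at blue gut. Its partner subunits did not share the difference, with 77.7 RPKM of Lsp1alpha in Trr depletion and 101 in wild type, and 269 and 253 of Lsp1beta. Lsp2, which shares reads, had 10773 and 7100.3 RPKM in Trr depletion and wild type.

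Larval cuticle genes were few above the filter, 7 of 15 entries, with 2 higher and 0 lower, beside 2.33% and 1.35% of all genes. Besides Lcp3 the higher one was its neighbour Lcp4, which shares reads, with 67.8 RPKM in Trr depletion and 31.3 in wild type, and its log2 difference was 0.97, under 2-fold, with median-ratio scaling. Lcp2, which also shares reads and lies in the same cluster, had 891 and 1019 RPKM in Trr depletion and wild type. In Cmi depletion at clear gut Lcp4 measured 2.20 RPKM and Lcp2 measured 16.3. Of the other cuticle families, which include the Cpr and Tweedle genes, 32 of 104 entries were measured, with 4 higher and 4 lower. Cpr47Eb had 17.2 RPKM in Trr depletion and 3.04 in wild type, and Cpr49Af had 18.4 and 4.85. In the other direction Cpr47Ee had 3.76 RPKM in Trr depletion and 12.9 in wild type, and Cpr62Bc had 0.480 and 3.32. In Cmi depletion at clear gut Cpr47Ee measured 11.2 RPKM and Cpr62Bc measured 0.282. At blue gut Cpr62Bc had 1.14 RPKM in the library labelled Trr depletion, 4.58 in wild type and 1.61 in larvae depleted of Cmi. For Cpr62Bc both wild-type libraries thus stood above every library labelled as a depletion.

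Genes of chitin and of cuticle tanning lay mostly on the lower side. Of 26 chitin genes 24 had a negative log2 difference, with a median of -0.28, where the median of all genes was 0.11. Past 2-fold, 3 were lower and 1 higher, beside 1.35% and 2.33% of all genes. Lower were obst-A, a chitin-binding protein, with 50.1 RPKM in Trr depletion and 115.4 in wild type, and the chitinase gene Cht3 (Cht10 in RefSeq), with 83.2 and 171. The chitin deacetylase gene Cda4 had 10.4 RPKM in Trr depletion and 22.2 in wild type, and a ratio at blue gut of 0.447 (0.409 to 0.489). In Cmi depletion at clear gut obst-A measured 116 RPKM, Cht3 measured 85.0 and Cda4 measured 6.71, the last 2 below wild type. The call of Cht3 was lost with quantile normalization, at a log2 difference of -0.9995, just short of 2-fold. The chitin synthase gene kkv had 14.7 RPKM in Trr depletion and 19.9 in wild type, within 2-fold. The higher gene was Cht9, given above.

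Of 19 genes of tanning and pigment, 16 had a negative difference. Past 2-fold, 3 of the 19 were lower and 0 higher, beside 1.35% and 2.33% of all genes. The tyrosine hydroxylase gene ple, the first enzyme of the dopamine pathway that hardens and darkens cuticle, had 871 RPKM in Trr depletion, 1829.9 in wild type and 1908 in larvae depleted of Cmi at clear gut. In the blue gut libraries ple stood at 5.90 to 7.69 RPKM, so that all 3 clear gut libraries were far higher, and Trr depletion the least so. The next enzyme, Ddc, had 382 RPKM in Trr depletion and 408 in wild type. The other lower genes were proPO-A1 and proPO45 (PPO1 and PPO2 in RefSeq), the prophenoloxidases of crystal cells, a blood cell type. The gene proPO45 measured 2.90 RPKM in Trr depletion and 91.4 in wild type at clear gut, and 53.01 and 281 in the library labelled Trr depletion and in wild type at blue gut. Its ratios were 0.0318 (0.0270 to 0.0372) and 0.189 (0.181 to 0.197). The gene proPO-A1, which shares reads, had 1.80 and 74.0 RPKM in Trr depletion and wild type at clear gut. Both were low in Cmi depletion at clear gut too, at 3.84 RPKM for proPO-A1 and 3.99 for proPO45. Among 21 blood cell genes these were the only ones past 2-fold, beside 3.68% of all genes. Of the 21, 16 had a negative difference and 5 a positive one. The list median was -0.30, where the median of all genes was 0.11. The blood cell scavenger receptor gene Sr-CI had 4.22 RPKM in Trr depletion and 7.47 in wild type, while nimC1, of plasmatocytes, had 17.8 and 9.92. The summed level of the 21 genes was 610.3 RPKM in Trr depletion and 875 in wild type at clear gut, and the part of blood cell number in other results was not tested.

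**Figure D4:**
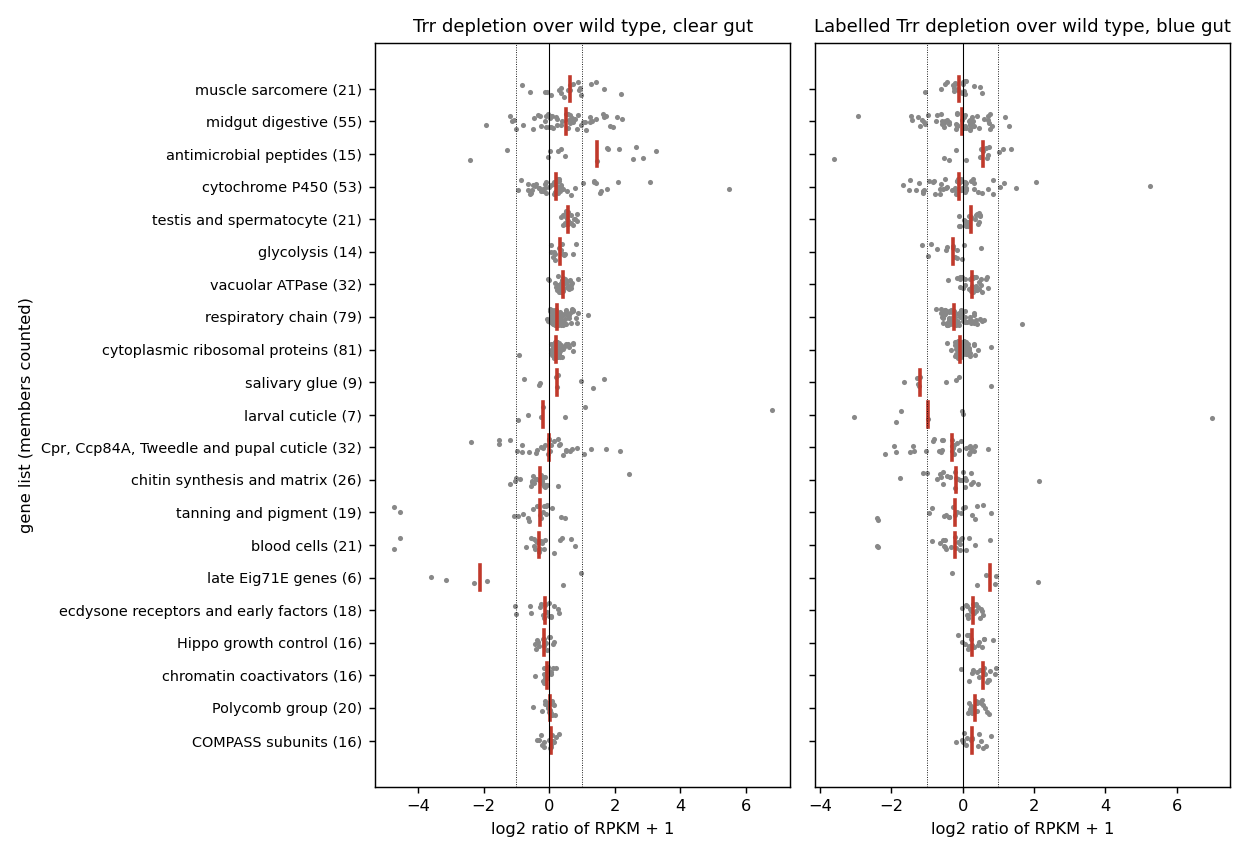
Each grey point is a measured member of a gene list, placed at its log2 ratio of RPKM + 1 of Trr depletion over wild type at clear gut (left) and in the blue gut libraries of the same labels (right); red bars are list medians, dotted lines mark 2-fold and the number of members is in parentheses. At clear gut the medians of muscle, midgut and antimicrobial genes lie right of 0 and that of the late Eig71E genes at -2.10. The COMPASS, Polycomb and coactivator lists stay within 2-fold there, where 3.68% of all genes were past 2-fold.

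Among the 54 gene lists, the digestive genes of the midgut had the most members past 2-fold. Of 55 measured, 14 were higher in Trr depletion and 5 lower, beside 2.33% and 1.35% of all genes. The list median was 0.50 at clear gut and -0.01 at blue gut, where the medians of all genes were 0.11 and 0.18. The glucosidase gene Mal-A1 had 8.59 RPKM in Trr depletion and 1.06 in wild type at clear gut, and 9.12 and 21.1 in the library labelled Trr depletion and in wild type at blue gut. The mucin gene Muc68Ca had 12.5 and 2.23 RPKM in Trr depletion and wild type at clear gut. The trypsin gene lambdaTry had 2.88 RPKM in Trr depletion and no read in wild type, 22.3-fold above the floor of 3 reads. Its interval began at 17.6. The trypsin gene kappaTry had 3.75 RPKM in Trr depletion and 0.309 in wild type, a ratio of 12.1 (5.64 to 31.1). In the opposite direction betaTry had 44.8 RPKM in Trr depletion and 174 in wild type, a ratio of 0.257 (0.238 to 0.277), and at blue gut it was lower as well, with a ratio of 0.131 (0.126 to 0.135). Summed over the list, the level was 13323 RPKM in Trr depletion and 11246 in wild type at clear gut, and 67449 and 67869 at blue gut, so that the 2 clear gut sums were far lower.

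Of 21 sarcomere genes 17 had a positive difference, and the median was 0.63, where that of all genes was 0.11. Past 2-fold, 4 were higher and 0 lower, beside 2.33% and 1.35% of all genes. The myosin heavy chain gene Mhc had 17.5 RPKM in Trr depletion, 4.79 in wild type and 1.79 in larvae depleted of Cmi at clear gut. At blue gut Mhc had 129 RPKM in the library labelled Trr depletion, 141 in wild type and 239 in larvae depleted of Cmi. All 3 clear gut libraries were thus lower, and Trr depletion was the highest of them, with a ratio to wild type of 3.65 (3.37 to 3.94). The troponin C gene TpnC47D had 7.42 and 0.844 RPKM in Trr depletion and wild type, and the light chain gene Mlc1 had 44.4 and 17.8. The light chain gene Mlc2, which shares reads, had 60.4 and 21.9 RPKM in Trr depletion and wild type. The summed level of the list was 1316 RPKM in Trr depletion and 869.9 in wild type at clear gut, and 2855 and 3307 at blue gut. The actin gene Act57B, of larval muscle, had 20.7 RPKM in Trr depletion and 13.0 in wild type, short of 2-fold.

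The stage difference of Cmi depletion, clear gut over blue gut, shares no library with the Trr comparison at clear gut and was set beside it. Over the 11326 genes, 1003 were at least 2-fold higher at clear gut in Cmi depletion (8.86%) and 1025 were lower (9.05%). Of the 264 genes higher in Trr depletion, 156 (59.1%) were 2-fold lower at clear gut than at blue gut for Cmi depletion and 7 (2.65%) were higher. Of the 153 genes lower in Trr depletion, 65 (42.5%) were 2-fold higher at clear gut in Cmi depletion and 29 (19.0%) were lower. Across all genes the 2 log2 differences had a Pearson correlation of -0.34 and a Spearman correlation of -0.31. The midgut list had a median stage difference of -4.15 in Cmi depletion and the muscle list one of -3.35, against 0.32 for all genes, and the late Eig71E genes had one of 3.77. Whether the pools compared were of the same age within the clear gut stage was not measured, so that a difference in age and a difference of genotype cannot be told apart.

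**Figure D5:**
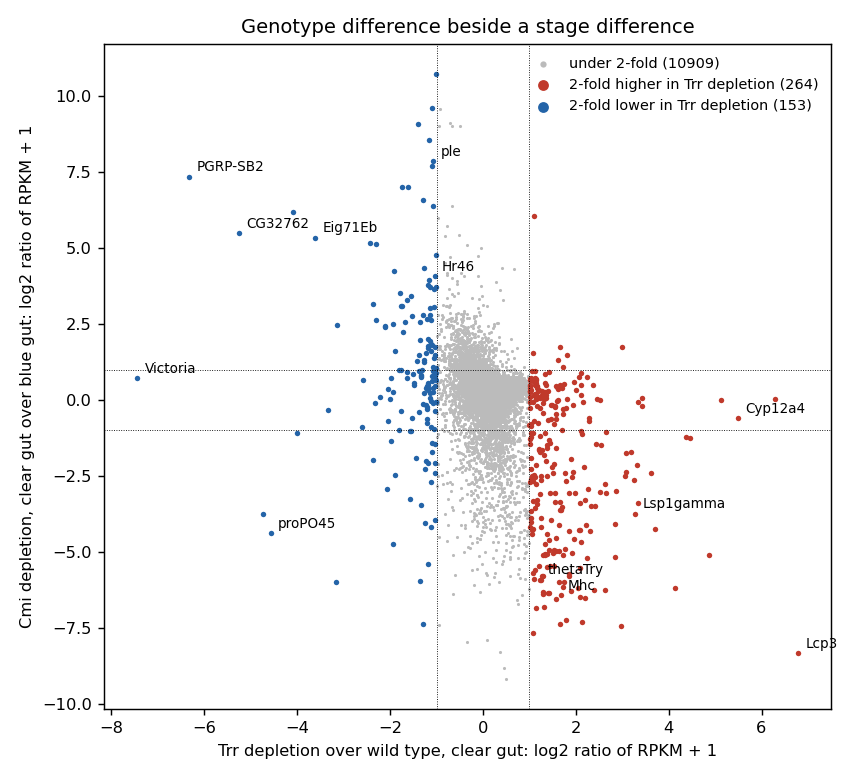
Each point is a gene kept, with the log2 ratio of RPKM + 1 of Trr depletion over wild type at clear gut on the horizontal axis and that of Cmi depletion at clear gut over Cmi depletion at blue gut on the vertical axis; dotted lines mark 2-fold. Of the red genes 156 lie below the lower line and 7 above the upper one; of the blue genes 65 lie above the upper line and 29 below the lower one.

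Antimicrobial peptide genes, secreted by the fat body on infection, had 8 of 15 members higher and 2 lower, beside 2.33% and 1.35% of all genes. The diptericin genes Dpt (DptA in RefSeq) and DptB had 224 and 47.9 RPKM in Trr depletion, against 35.0 and 4.16 in wild type. Dpt had a ratio of 6.41 (5.79 to 7.12) and DptB one of 11.5 (8.57 to 15.8). The attacin gene AttC had 19.1 RPKM in Trr depletion and 1.75 in wild type, and Dro, which encodes drosocin, had 14.5 and 1.66. Drs and Mtk, which encode the antifungal peptides drosomycin and metchnikowin, lay within 2-fold, with 1027 RPKM of Drs in Trr depletion and 798 in wild type, and 774 and 639 of Mtk. The drosomycin relatives were lower. Drsl2 had 12.2 RPKM in Trr depletion, 70.1 in wild type and 129.6 in larvae depleted of Cmi at clear gut. Drsl5 had 1251 in Trr depletion, 3042 in wild type and 2868 in larvae depleted of Cmi. The summed level of the 15 genes was 3412 RPKM in Trr depletion and 4609 in wild type. In Cmi depletion at clear gut 4 of the 15 were higher than wild type and 0 lower, with 73.5 RPKM of Dpt. Over all genes of that comparison 1.43% were higher and 4.28% lower.

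Other immune genes were mixed. Of 9 Bomanin and IM peptide genes, 1 was higher and 2 lower at clear gut, while 7 were higher and 1 lower at blue gut. Over all genes 2.33% were higher and 1.35% lower at clear gut, and 1.49% and 1.82% of the same genes at blue gut. IM18 had 22.96 RPKM in Trr depletion and 3.94 in wild type. IM4 (Dso1 in RefSeq) had 0.314 RPKM in Trr depletion and 5.58 in wild type at clear gut, but 27.1 and 2.08 in the library labelled Trr depletion and in wild type at blue gut. IM14 (Dso2) had 3.19 and 14.7 RPKM in Trr depletion and wild type at clear gut, and 48.4 and 3.50 at blue gut. In Cmi depletion at clear gut IM4 had 0.479 RPKM and IM14 had 3.765, both below wild type, and IM18 had 7.24, above it. Of 11 peptidoglycan recognition genes, PGRP-SB2 was lower and PGRP-SC1b was higher. PGRP-SC1b had 6.87 RPKM in Trr depletion and 2.22 in wild type. All 3 Turandot genes measured were lower, TotA, which shares reads, with 23.3 RPKM in Trr depletion and 55.2 in wild type. TotC had 0.206 and 1.83 RPKM in Trr depletion and wild type, from 3 and 27 reads, a ratio of 0.112 (0.0218 to 0.365). In Cmi depletion at clear gut TotC had 0.131 RPKM, below wild type, and TotA had 62.3, above it.

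Of 53 cytochrome P450 genes, enzymes of hormone synthesis and of detoxification, 10 were higher in Trr depletion and 0 lower. The shares of all genes were 2.33% and 1.35%. Under quantile normalization 9 of the 53 were higher and 2 lower. After Cyp12a4 the next was Cyp4p1, with 15.1 RPKM in Trr depletion and 0.903 in wild type at clear gut, and 23.1 and 4.75 in the library labelled Trr depletion and in wild type at blue gut. Cyp28a5 had 36.7 and 7.84 RPKM in Trr depletion and wild type at clear gut, yet 44.1 and 123 at blue gut, where it was the lower. Cyp4e3 had 5.46 RPKM in Trr depletion and 0.884 in wild type at clear gut, and Cyp6t1 had 7.80 and 1.92. In Cmi depletion at clear gut Cyp4e3 had 0.350 RPKM, below wild type, and Cyp6t1 had 8.74, above it. The median of the 53 genes was 0.21, where that of all genes was 0.11. After median-ratio scaling it was 0.12, where that of all genes was 0.00.

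Among the other detoxification families the counts were small in both directions. Glutathione S-transferases held 2 higher and 1 lower of 29, against 2.33% and 1.35% over all genes. GstE3 had 36.3 RPKM in Trr depletion and 78.4 in wild type. GstE1 had 37.5 and 17.9 in Trr depletion and wild type, a call lost under median-ratio scaling (0.91 on the log2 scale) and quantile normalization (0.96). GstE8, which shares reads, had 3.56 RPKM in Trr depletion and 0.969 in wild type. UDP-glycosyltransferases held 1 higher and 1 lower of 21. CG5724 (Ugt37A2 in RefSeq), which shares reads, had 11.8 RPKM in Trr depletion and 1.57 in wild type, and Ugt86Di had 2.72 and 6.78. Of 6 metallothioneins MtnC alone was past 2-fold, with 5.65 RPKM in Trr depletion and 21.5 in wild type at clear gut. At blue gut it had 11.3 RPKM in the library labelled Trr depletion and 34.5 in wild type, a ratio of 0.328 (0.252 to 0.424). Cmi depletion had 1.97 RPKM of MtnC at clear gut and 2.79 at blue gut, so that both wild-type libraries stood above every library labelled as a depletion.

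Heat shock genes held 2 higher and 0 lower of 18, beside 2.33% and 1.35% of all genes. The small heat shock gene l(2)efl had 614 RPKM in Trr depletion, 258 in wild type and 96.2 in larvae depleted of Cmi at clear gut. Hsp70Aa, one of near-identical copies whose reads are shared, had 1.90 RPKM in Trr depletion and 0.217 in wild type, low beside 3446 and 4073 RPKM of Hsp23. Of 22 odorant binding protein genes 2 were higher and 1 lower. Obp18a had 1.37 RPKM in Trr depletion and 4.22 in wild type. Obp57d had 47.7 and 22.2, a log2 difference of 0.95 with median-ratio scaling. Obp58c had 4.05 and 1.38, one of 0.89 with quantile normalization. Both were then short of 2-fold. At blue gut Obp18a had 1.63 RPKM in the library labelled Trr depletion and 5.21 in wild type. Cmi depletion had 0.941 RPKM of Obp18a at clear gut and 0.832 at blue gut, so that both wild-type libraries stood above every library labelled as a depletion.

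Genes of energy metabolism and translation differed little and mostly in one direction. Over all genes the median was 0.11 at clear gut, so that most had a positive difference there, and 0.18 at blue gut. All 14 glycolysis genes had a positive difference, with a median of 0.33 at clear gut and -0.28 at blue gut. Past 2-fold were 0 of them, beside 3.68% of all genes. Of 79 respiratory chain genes 77 had a positive difference, with a median of 0.22 at clear gut and -0.23 at blue gut. CG8102 (ND-51L2 in RefSeq), a low subunit paralogue of complex I, was the 1 past 2-fold, though at 0.99 under quantile normalization. It had 3.58 RPKM in Trr depletion and 1.00 in wild type at clear gut. At blue gut it had 3.84 RPKM in the library labelled Trr depletion and 0.526 in wild type. Cmi depletion had 3.52 RPKM of CG8102 at clear gut and 2.71 at blue gut, so that every library labelled as a depletion stood above both wild-type libraries. Of 81 cytoplasmic ribosomal protein genes 80 had a positive difference, with a median of 0.20, and of 32 vacuolar ATPase subunit genes 31 did, with a median of 0.41. The proton pump gene Vha100-5, which shares reads, had 16.8 RPKM in Trr depletion and 8.62 in wild type. Proteasome genes, 45 in number, had a median of -0.01. With the median of all genes at 0.11, and at 0.00 after median-ratio scaling, the medians of these lists became 0.21 for glycolysis, 0.11 for the respiratory chain, 0.08 for ribosomal proteins and 0.30 for the vacuolar ATPase.

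Several lists of regulatory genes held no gene past 2-fold. None of 20 Polycomb group genes, 16 chromatin coactivators, 6 Hox genes, 33 disc patterning genes or 16 genes of Hippo growth control was called, and the same held for 15 members of Dpp, 17 of Wingless, 11 of Hedgehog, 20 of Notch and 15 of EGF signalling. Their medians lay between -0.18 for EGF signalling and 0.02 for the Polycomb group and Notch signalling, and those of the last 2 turned negative with either scaling. The share called over all genes was 3.68%. The Hippo genes ran from -0.44 to 0.15, and the Polycomb gene jing was the lowest of its list, with 16.5 RPKM in Trr depletion and 23.6 in wild type. Of 16 small RNA pathway genes 0 were called, and Dcr-2, the dicer of RNA interference, had 25.6 RPKM in Trr depletion and 29.3 in wild type at clear gut, beside 197 in Cmi depletion.

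Testis genes, read as markers of male gonads in the pools, differed evenly. All 21 members measured were above wild type in the Trr depletion library, by 0.37 to 0.85 on the log2 scale, with a median of 0.57. Past 2-fold were 0 of the 21, beside 3.68% of all genes. The median was 0.46 after median-ratio scaling and 0.36 after quantile normalization. Their summed level was 524 RPKM in Trr depletion, 326 in wild type and 560.1 in larvae depleted of Cmi at clear gut, and at blue gut it was 572 in the library labelled Trr depletion, 493 in wild type and 401 in larvae depleted of Cmi. The wild-type clear gut library was thus the lowest of the 6. The testis tubulin gene betaTub85D, which shares reads, had 97.6 RPKM in Trr depletion and 56.0 in wild type, and the cell cycle phosphatase gene twe had 10.9 and 5.61. The sex of the larvae is not given in the labels, and the part of sex in other differences was not tested. Of 13 neuronal genes 0 were past 2-fold, beside 3.68% of all genes, with a median of 0.02 that turned negative with either scaling.

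The genes called lay on all large chromosome arms. On chromosome arm 2R 2.80% of 2175 genes were higher and 1.33% lower, on 2L 2.23% and 1.27%, on 3L 1.84% and 1.69%, on 3R 2.32% and 1.20%, and on X 1.21% of 1653 genes were higher and 0.907% lower. None of 74 genes on chromosome 4 was called. Neighbouring genes that differed the same way formed 8 higher and 4 lower runs of at least 3 called genes spaced by no more than 20 kb, with 27 of 223 placed higher genes and 13 of 135 placed lower genes in them. One higher run on 2R (dm6, 8435310 to 8460884) held Lcp3, Lcp4, Mal-A1 and Mal-A4. Another on 2R (11336840 to 11342760) held the trypsin genes lambdaTry, kappaTry, zetaTry and thetaTry, which are 4 of the 5 genes measured there. The immune genes Dro, AttA and AttB, all 3 of the genes measured there, lay at 14745961 to 14750165 on 2R. Among the lower runs 4 of the 5 genes measured at 15649126 to 15657390 on 3L were Eig71Ea, Eig71Eb, Eig71Ed and Eig71Ef. PGRP-SB2 lay in another lower run on 3L (16724678 to 16739364) with CG13026 and CG9701, 3 of 6 genes measured. Several of these runs join genes of 1 family, so that their members may share sequence as well as place.

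The share of genes called depended on the level. Of 1755 genes with a mean of 1 to 3 RPKM, 4.05% were higher in Trr depletion and 1.65% lower. Of 3553 genes with a mean of 10 to 30 RPKM, 1.18% were higher and 1.04% lower, and of 772 genes at 100 RPKM or above, 1.94% were higher and 2.46% lower. A low gene is called on fewer reads, and its interval is wider. Entries without a symbol made up 58 of the 417 genes called, 40 higher and 18 lower. Cmi depletion at clear gut, set against the same wild-type library, had 642 of 11250 genes past 2-fold (5.71%), 161 higher (1.43%) and 481 lower (4.28%), and because the wild-type library is shared no overlap of these lists with those of Trr depletion is given.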

How the data were processed

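RNA from 6 pools of whole larvae was DNase treated, selected with oligo dT, fragmented and sequenced on an Illumina HiSeq, per the labels' protocols, which name SOAPaligner/SOAP2 as the aligner. Bowtie and the genome build dm6 are named in the submitters' processing notes, without a step. The sources used here do not state the counting tool, its annotation or any use of strand. The values are RPKM deposited by the authors, scaled to gene length and to the reads on the genes of the table.

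Read counts were recovered from RPKM and length by the depth at which values become whole reads. Between 85.3% and 86.3% of the values of a library judged lay within 0.1 of a whole read, and at least 99.97% lay within 0.1 of a multiple of 0.5 reads. Depth was 23.1 to 25.0 M reads, and a floor of 3 reads is 0.0777 to 0.0842 RPKM at the median length of 1543 bases. Log2 differences used a pseudocount of 1 RPKM, and a call was made at 2-fold. Counting intervals are Clopper-Pearson intervals on the share of reads. Gene identifiers were matched to RefSeq annotation of dm6 for 13253 of 15741 entries (84.2%), which gave coordinates. The scripts used Python 3.11.15, NumPy 2.4.6, pandas 2.3.3 and SciPy 1.17.1, and were tested on simulated data.

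Genes named were the 15 highest and the 15 lowest with a symbol, the 8 highest and the 8 lowest by the smaller of both stages' differences, up to 5 members past 2-fold of each of 54 gene lists, and trr and Lpt, 89 genes in all. Other genes named were chosen after their values were seen. The comparison and the lists were chosen with earlier results of these data known. Other pseudocounts, filters, scalings and folds were tried. Promoter motifs were not analysed here.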

Additional observations from a re-analysis of the deposited data

Results flagged for a closer look

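In 10 genes named above the difference between Trr depletion and wild type passed 2-fold at both stages but in opposite directions, and the same reversal of sign, under 2-fold, was seen for trr. Each stage has 1 library of each genotype, so that the difference between stages was not tested. Lower at clear gut and higher at blue gut were Drsl2, with log2 differences of -2.43 at clear gut and 1.35 at blue gut, and Eig71Ed, with -1.91 and 2.12. The same held for the immune peptide genes IM4, with -2.32 at clear gut and 3.19 at blue gut, and IM14, with -1.90 and 3.46. Cmi depletion at clear gut was below wild type too for these 2, with log2 differences of -2.15 for IM4 and -1.72 for IM14. In wild type at blue gut only 2 reads fell on Drsl2 and 3 on Eig71Ed, so that their blue gut differences are uncertain.

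Higher at clear gut and lower at blue gut were the digestive gene Mal-A1, with 2.22 and -1.13, the muscle gene TpnC47D, with 2.19 and -1.04, and the salivary gland gene ng3, with 1.32 and -1.22. The detoxification genes Cyp28a5, with 2.09 and -1.46, and CG5724, with 2.32 and -1.38, did so too, as did Hsp70Aa, with 1.25 and -1.14. CG5724 and Hsp70Aa share reads with other entries. The targeted gene trr stood at -0.32 at clear gut and 0.23 at blue gut, where the median of all genes was 0.18. It was thus not lower in the blue gut library labelled Trr depletion.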

How the results depend on the processing

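With a pseudocount of 0.1 RPKM the count of genes past 2-fold became 664, of which 437 were higher, while 87 genes were lower at both stages and 103 lower genes were 2-fold higher at clear gut in Cmi depletion. With a mean of at least 5 RPKM it was 254, 144 of them higher, with 38 higher at both stages and 97 higher genes that were 2-fold lower at clear gut in Cmi depletion. At 1.5-fold 1802 genes were called, 1336 higher and 466 lower, with 203 higher and 154 lower at both stages, 340 and 263 opposite to the Cmi stage difference, and 212 list members. At 3-fold 159 were called, 111 higher and 48 lower, with 28 and 15 at both stages, 66 and 22 opposite to the Cmi stage difference, and 45 list members, where 94 list members passed 2-fold. These shifts follow from the pseudocount, filter or fold itself. Quantile normalization took the log2 difference of trr to -0.55. Median-ratio scaling, quantile normalization, no filter on low values and whole-read entries left each count of genes within 1.5 times. The counts of higher and lower genes at clear gut also stayed within 1.5 times among genes with a symbol and among genes whose interval lies wholly beyond 2-fold, 2 alternatives added after seeing the data and run on those counts alone. Of 87 named genes past 2-fold, 87 stayed so with the smaller pseudocount, 84 after median-ratio scaling and 83 after quantile normalization, and none changed direction.

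No paired analysis was possible because each clear gut group holds 1 library, and no replicate was left out for that reason. A fit over the 6 libraries with stage as an additive term, which assumes the same genotype difference at both stages, was not run. Promoter motifs were not run. With a single library of each genotype, a gene can differ through the pools sampled, and depth limits genes of few reads, such as Victoria with 1 read in Trr depletion.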

Other observations

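Some large differences lay outside the gene lists, and the genes given here were chosen after their values were seen. Uro, the urate oxidase of the Malpighian tubules, had 8.99 RPKM in Trr depletion, 0.394 in wild type and 0.0320 in larvae depleted of Cmi at clear gut, and at blue gut it had 30.7 in the library labelled Trr depletion and 60.7 in wild type. It was thus low in all 3 clear gut libraries and least so in Trr depletion, with a ratio to wild type of 22.8 (12.9 to 44.8). Pepck, the phosphoenolpyruvate carboxykinase of gluconeogenesis, had 386 RPKM in Trr depletion and 79.0 in wild type at clear gut, and 938 and 448 in the library labelled Trr depletion and in wild type at blue gut. Pepck was higher at both stages, with ratios of 4.89 (4.75 to 5.05) and 2.09 (2.06 to 2.12). PH4alphaSG2, a prolyl hydroxylase subunit of the salivary gland, had 11.3 RPKM in Trr depletion and 2.12 in wild type at clear gut, and a ratio of 2.70 (2.43 to 3.01) at blue gut. Its neighbour PH4alphaSG1 had 2.46 and 0.621 RPKM in Trr depletion and wild type at clear gut.

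The photolyase gene phr had 12.05 RPKM in Trr depletion and 2.74 in wild type at clear gut, and 12.4 and 2.78 in the library labelled Trr depletion and in wild type at blue gut. Cmi depletion had 11.3 RPKM of phr at clear gut and 10.9 at blue gut, so that the 4 libraries labelled as depletions stood above both wild-type libraries, as for Cyp12a4, Pgd and Rack1. The values of phr came out at fractions of a read and are uncertain. On the lower side, the tubulin gene alphaTub85E had 13.0 RPKM in Trr depletion, 52.4 in wild type and 6.70 in larvae depleted of Cmi at clear gut. The esterase gene Est-6 had 0.479 RPKM in Trr depletion, 4.82 in wild type and 0.174 in larvae depleted of Cmi. The thioester protein gene Tep1, which shares reads, had 9.23 RPKM in Trr depletion, 24.9 in wild type and 22.6 in larvae depleted of Cmi at clear gut.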
